A study of Pyrus pyrifolia with 12 samples.

Results

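Class III peroxidase genes were followed in the fruit skin of 4 varieties of the Asian pear Pyrus pyrifolia. The members were the 96 genes, of 43732 in the deposited table, whose Swiss-Prot best hit is named Peroxidase (with or without a number or letter), Cationic peroxidase or Lignin-forming anionic peroxidase. No gene carried the last of these names. Ascorbate, glutathione and thioredoxin peroxidases were left out. The members held 43 different names, and 59 of them had a best hit from Arabidopsis. Skin was taken from untreated mature fruit of Akibae at 120 days after full bloom, of Nijisseiki at 135 days, and of SuCui NO.1 and CuiYu at 105 days, with 3 libraries per variety and 12 in all. All were grown in orchards in Yizheng, each was sampled at 1 stage only, and none is a control for another. Variety and harvest day cannot be told apart except between SuCui NO.1 and CuiYu. The study asked how russet, a brown corky skin, forms in pear. The labels say nothing of which varieties are russet.

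Class III peroxidases are haem enzymes that plants secrete into the cell wall or send to the vacuole. They use hydrogen peroxide to oxidise phenolic substrates into radicals, which couple to form lignin, the phenolic part of suberin and cross-links between wall proteins. In other settings they release reactive oxygen themselves and loosen the wall. The family is large in every seed plant studied, and its members differ mainly in where and when they are expressed.

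The names fitted the domain annotation. Of the 96 members, 90 carried the Pfam peroxidase domain and 6 had no Pfam hit. That domain is shared with ascorbate peroxidases and their relatives, and 19 genes outside the list carried it too. A further Pfam domain, DUF3415, stood beside it in 1 member, gene41460. Gene models were 418 to 1993 bases long with a median of 1084, and those of the members tested below were 999 to 1509 bases. No protein or genome sequence was used here, so gene names rest on the deposited best hits.

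The total count per library was 11981445 to 15136559. Levels across libraries are given as CPM, read counts scaled by library size with TMM correction. Levels across genes are given as the deposited FPKM, which also divides by gene length. The library labelled Nijisseiki replicate 1 stood apart: 146 genes switched between at least 10 CPM and at most 0.5 CPM against Nijisseiki replicate 2 and 134 against replicate 3, while any other pair within a variety had 6 to 63 such genes. Markers of the labelled tissue were unevenly present. The 19 epidermis marker genes, 6 of them with no read in any library, summed to 11.3 to 21.2 CPM in Akibae, 27.6 to 117 in Nijisseiki, 61.0 to 84.8 in SuCui NO.1, against 172 to 196 in CuiYu. The 27 chlorophyll a-b binding genes summed to 127 to 167 CPM in Akibae, 199 to 714 in Nijisseiki, 512 to 1243 in SuCui NO.1, against 362 to 450 in CuiYu. The 13 markers of xylem and lignified cells summed to at most 1.44 CPM in any library, with 4 at 0 reads, and none was abundant enough to be tested. The 4 phloem markers, none at 0 reads throughout, summed to 4.85 to 41.4 CPM in Akibae, 0.0723 to 1.48 in Nijisseiki and 1.34 to 10.3 in SuCui NO.1, against 0.278 to 0.516 in CuiYu, with the highest values of Akibae and SuCui NO.1 in their replicate 3. In bulk skin, fewer cells of a type and less RNA per cell cannot be told apart.

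Most of the family had few or no reads in mature skin. Of the 96 members, 45 had no read in any of the 12 libraries, 27 had reads but too few for a test, and 24 (25%) were tested, against 60.2% of all genes in the table. The highest mean level among the untested members was 0.506 FPKM. A library held 28 to 37 members with a read and 16 to 23 members at 1 CPM or more. On the deposited coordinates, whose genome build the sources used here do not name, 89 members lay on 17 chromosomes and 7 on unplaced scaffolds, and 44 of them stood in 15 arrays of neighbours with starts within 100 kb of each other. Members in arrays were tested in 8 of 44 cases (18.2%) and members outside arrays in 16 of 52 (30.8%). The longest array, 5 genes named Peroxidase 4 or Peroxidase 52 on chromosome 7 from 19280643 to 19348688, had 4 members with reads and none that could be tested. Likewise, 4 neighbours named Peroxidase N1 on chromosome 8 held a single read between them, in SuCui NO.1 replicate 2.

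**Figure D1:**
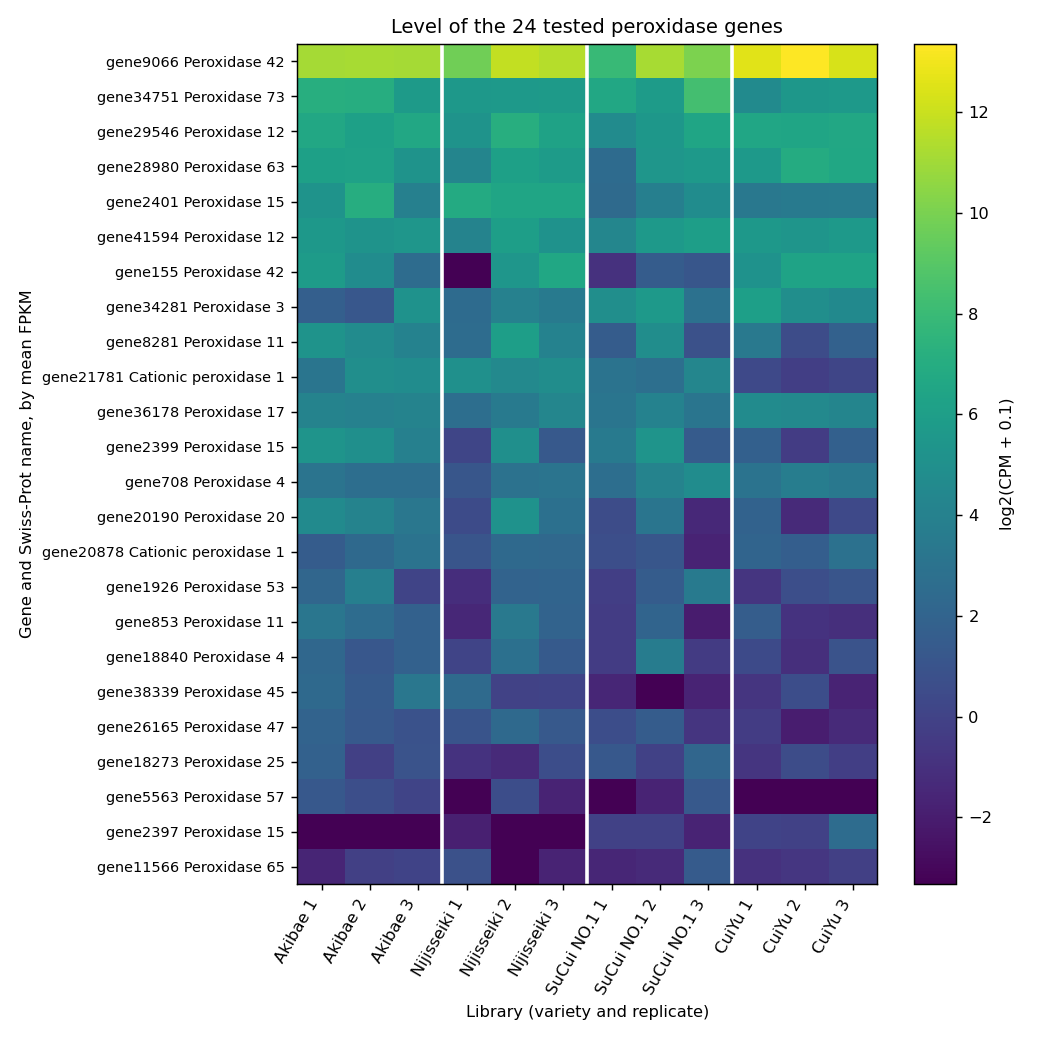
Level of the 24 tested members in each of the 12 libraries as log2(CPM + 0.1), rows in order of mean FPKM and columns by variety and replicate. The top row, gene9066, is the highest in every library, and several rows in the lower part change more between libraries of 1 variety than between varieties.

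One gene dominated the family. Gene9066 is named Peroxidase 42 and lies on chromosome 10 from 24474620 to 24476939 on the minus strand. With a mean of 2116 FPKM over the 12 libraries it ranked 13 among all genes of the table. By library its rank was 14 to 20 in Akibae, 11 to 96 in Nijisseiki and 17 to 628 in SuCui NO.1, against 4 to 8 in CuiYu. It made up 45% to 94.8% of the summed FPKM of the 96 members, the lowest share in SuCui NO.1 replicate 1 and the highest in CuiYu replicate 2. The other 95 members together summed to 421 to 650 CPM in Akibae, 307 to 692 in Nijisseiki and 241 to 658 in SuCui NO.1, against 399.7 to 479.7 in CuiYu, ranges that all overlap. It stood at 2233, 2318 and 2223 CPM in Akibae, 865, 3562 and 2857 CPM in Nijisseiki, 237, 2296 and 1084 CPM in SuCui NO.1, against 6266, 10466 and 5268 CPM in CuiYu. All 3 CuiYu libraries lay above the other 9, which overlapped each other, and Akibae was the most even variety. The gene fell by 2.60 ± 0.73 on the log2 scale in SuCui NO.1 over CuiYu (SE, n = 3 each, edgeR adjusted p = 0.0334), the pair harvested at the same number of days after full bloom. The call ended without SuCui NO.1 replicate 3 (adjusted p = 0.0882) or without CuiYu replicate 1, 2 or 3 (0.0662, 0.107 and 0.0539), and with only the 6 libraries of the pair fitted (0.0738). The log2 fold change over CuiYu was -1.70 ± 0.71 for Akibae (adjusted p = 0.138) and -1.59 ± 0.71 for Nijisseiki (adjusted p = 0.155), and neither passed. Akibae over CuiYu passed without SuCui NO.1 replicate 1 (0.0477) and with only its own 6 libraries fitted (0.0066). The test among the 4 varieties did not pass (adjusted p = 0.0582). It passed without Nijisseiki replicate 1 (0.0379), SuCui NO.1 replicate 1 (0.0373) or SuCui NO.1 replicate 2 (0.0257), and with DESeq2 (0.003).

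Its copy of the same name, gene155 on chromosome 5 from 26010146 to 26012516, was far weaker, with a mean of 24.4 FPKM. It stood at 56.9, 27.4 and 5.78 CPM in Akibae, 0, 43.9 and 97.7 CPM in Nijisseiki, 0.418, 2.75 and 2.08 CPM in SuCui NO.1, against 35.6, 80.1 and 80.9 CPM in CuiYu. The SuCui NO.1 libraries were low in both copies relative to CuiYu. The fall in SuCui NO.1 over CuiYu was 5.21 ± 1.56 on the log2 scale (SE, n = 3 each, edgeR adjusted p = 0.0421). That call ended in 9 of the 12 fits that left out 1 library, at an adjusted p of 0.0518 to 0.112: without Akibae replicate 1 or 2, Nijisseiki replicate 2, or any 1 library of SuCui NO.1 or CuiYu. The library labelled Nijisseiki replicate 1 had 0 reads of gene155 against 607 and 1395 in the other Nijisseiki libraries. Without it, the test among the 4 varieties passed (adjusted p = 0.00719, against 0.106 with all libraries), as did Akibae over SuCui NO.1 (0.00883, against 0.0896) and Nijisseiki over SuCui NO.1 (0.00399, against 0.0689). With all libraries, DESeq2 called gene155 in Akibae over SuCui NO.1 (0.0435) and in Nijisseiki over SuCui NO.1 (0.0179). Akibae over SuCui NO.1 also passed with only its own libraries fitted (0.0399). Whether reads of 1 copy were counted for the other was not tested.

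**Figure D2:**
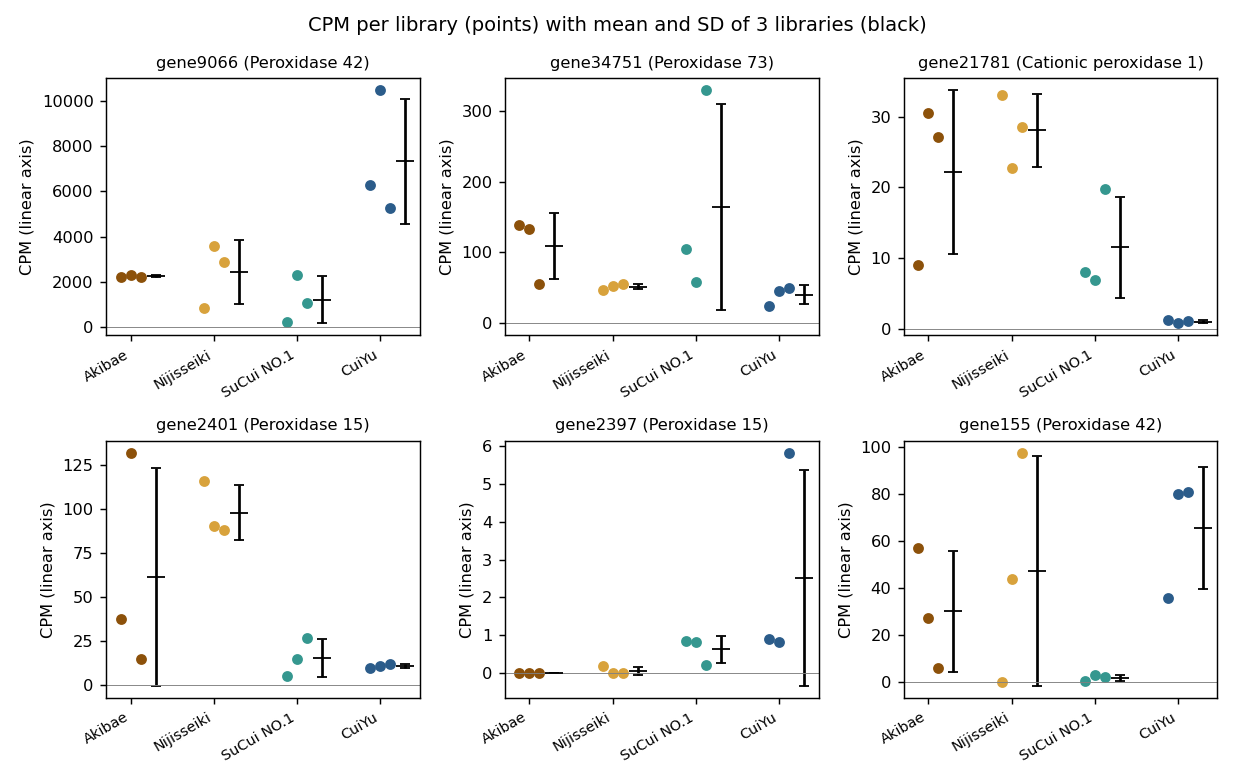
CPM of 6 members in each library (coloured points, linear axes) by variety, with the mean and SD of the 3 libraries in black. Gene9066 is highest in the CuiYu libraries, gene21781 lowest there, gene2397 has no read in Akibae, and gene155 is near 0 in SuCui NO.1 and in 1 Nijisseiki library.

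Across the family, 5 of the 24 tested members (20.8%) differed among the 4 varieties, against 28.3% of all 26307 genes tested, a share below the background. These were gene21781, gene2401, gene2397, gene38339 and gene26165. At an unadjusted p under 0.05 there were 8 members, against 42.4% of all genes tested. DESeq2 gave an adjusted p to 35 members and called 8, against 37.2% of all genes with one: the same 5, gene9066, gene34751 and gene37523. No member differed between Akibae and Nijisseiki in either direction in the edgeR fit, where 0.962% of genes tested were higher and 1.57% lower in Akibae. No member reached an unadjusted p under 0.05 in that pair, against 6.53% of all genes tested higher and 7.77% lower, and DESeq2 called none, against 2.35% of genes higher and 3.14% lower. Without the library labelled Nijisseiki replicate 1, 7 of 27 tested members differed among the varieties, the 5 named among them, against 33.8% of all genes tested in that fit.

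In Akibae over SuCui NO.1, 1 member was higher (background 7.62%) and 0 were lower (8.66%), with 2 lower at an unadjusted p under 0.05 (16.3%) and 1 by DESeq2 (10.9%). In Akibae over CuiYu, 3 members were higher (background 6.99%) and 1 was lower (8.09%). In Nijisseiki over SuCui NO.1, 2 were higher (6.68%) and 0 were lower (5.76%), with 3 lower at an unadjusted p under 0.05 (13.3%) and 2 by DESeq2 (8.29%). With the replicate number as a block, 1 was higher in that pair (6.04%). In Nijisseiki over CuiYu, 3 were higher (8.03%) and 1 was lower (7.37%). SuCui NO.1 over CuiYu gave 2 higher (8.86%) and 2 lower (8.58%). Without Nijisseiki replicate 1, Akibae over CuiYu had 5 higher members (background 8.69% in that fit), Akibae over SuCui NO.1 had 2 (9.07%), Nijisseiki over SuCui NO.1 had 1 (8.44%), and SuCui NO.1 over CuiYu had 3 lower (10.4%). These 6 pairs share libraries, so a gene at an extreme in CuiYu is counted in several of them. The median log2 fold change of the 24 members was 0.22, 0.76, 1.34, 0.35, 0.21 and 0.60 in the 6 pairs in the order given from Akibae over Nijisseiki to SuCui NO.1 over CuiYu, while the median of all genes tested lay between -0.03 and 0.06.

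The clearest difference was in gene21781, a Cationic peroxidase 1 on chromosome 4 from 2582276 to 2584735, named after an enzyme secreted by cultured peanut cells. It stood at 8.94, 30.5 and 27.2 CPM in Akibae, 33.1, 22.7 and 28.6 CPM in Nijisseiki, 7.95, 6.84 and 19.8 CPM in SuCui NO.1, against 1.18, 0.753 and 1.03 CPM in CuiYu. No CuiYu library overlapped any other library. The log2 fold change over CuiYu was 4.47 ± 0.57 in Akibae (SE, edgeR adjusted p = 0.000516), 4.81 ± 0.58 in Nijisseiki (0.00041) and 3.53 ± 0.55 in SuCui NO.1 (0.00206). It was the sole member lower in 1 variety than in each of the others, a pattern held by 2.3% of genes tested for CuiYu. At an unadjusted p under 0.05 there were 3 such members for CuiYu (background 5.32%), and DESeq2 called 3 (3.17%). The 3 edgeR calls of gene21781 over CuiYu and its test among varieties (adjusted p = 0.000913) passed in all 12 fits that left out 1 library. Without SuCui NO.1 replicate 3, Akibae over SuCui NO.1 (adjusted p = 0.0475, against 0.213 with all libraries) and Nijisseiki over SuCui NO.1 (0.0289, against 0.112) passed too. Of its 3 neighbours in the array, 2 named Cationic peroxidase 1 and 1 named Peroxidase 67, none had a read in any library. No member was higher in 1 variety than in each of the others, where the background was 0.247% for Akibae, 0.228% for Nijisseiki, 1.66% for SuCui NO.1 and 2.11% for CuiYu. DESeq2 called 0 such members, and at an unadjusted p under 0.05 there was 1, for CuiYu (background 4.63%). None was lower in Akibae (background 0.817%), Nijisseiki (0.3%) or SuCui NO.1 (2.41%) than in each of the others by edgeR. At an unadjusted p under 0.05 there were 2 lower in SuCui NO.1 (4.9%) and 0 in the other varieties named, and DESeq2 called 1 for SuCui NO.1 (3.07%).

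The Peroxidase 15 array on chromosome 3, from 18830899 to 18889664, held 3 genes with reads, described in turn, and a Peroxidase N without a read, gene2396. Gene2401 (18887678 to 18889664) stood at 37.8, 132 and 15.2 CPM in Akibae, 116, 90.2 and 88.2 CPM in Nijisseiki, 5.27, 14.7 and 27.04 CPM in SuCui NO.1, against 9.95, 11.1 and 12.1 CPM in CuiYu. All Nijisseiki libraries lay above those of SuCui NO.1 and CuiYu, and the Akibae libraries spread widely. It was higher by 3.15 ± 0.74 on the log2 scale in Nijisseiki over CuiYu (SE, edgeR adjusted p = 0.0163), by 2.64 ± 0.72 in Nijisseiki over SuCui NO.1 (0.0354) and by 2.48 ± 0.72 in Akibae over CuiYu (0.0401). The test among the 4 varieties (adjusted p = 0.0163) held in all 12 fits that left out 1 library, but the pairs did not. Nijisseiki over CuiYu ended without CuiYu replicate 1, 2 or 3 (0.0679, 0.0668 and 0.0554). Nijisseiki over SuCui NO.1 ended at 0.0525 to 0.0968 without any 1 library of Nijisseiki or CuiYu or SuCui NO.1 replicate 1 or 2, and at 0.0509 with only its own libraries fitted. Akibae over CuiYu rested on Akibae replicate 2, without which the log2 fold change was 1.26 (0.205). It also ended, at 0.0525 to 0.128, without Akibae replicate 1, Nijisseiki replicate 2 or 3, SuCui NO.1 replicate 2 or any 1 CuiYu library. Akibae over SuCui NO.1 passed without Akibae replicate 3 (0.0271, against 0.0821 with all libraries) and with DESeq2 (0.0224).

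Gene2397 (18840555 to 18842538) was scarce, and its reads were fewest in Akibae and Nijisseiki. It had 0 reads in the 3 Akibae libraries, 2, 0 and 0 reads in Nijisseiki, 10, 11 and 3 in SuCui NO.1, against 13, 11 and 79 in CuiYu. Counted reads were at least 32.3-fold lower in Akibae than in CuiYu against a floor of 3 reads over the 3 libraries (edgeR adjusted p = 0.0142). CuiYu stood at 49.5 times Nijisseiki (95% exact counting interval 13.4 to 414, adjusted p = 0.0281). The interval covers counting error only. CuiYu replicate 3 held 79 of the 103 CuiYu reads. Without it the bound against Akibae was 11.2-fold (0.0365), the ratio to Nijisseiki was 17.2 (counting interval 4.27 to 150.1), and the fitted log2 fold change of Nijisseiki over CuiYu was -3.83, against -5.36 with all libraries. The pair of Nijisseiki and CuiYu did not pass without Nijisseiki replicate 2 (0.0816), Nijisseiki replicate 3 (0.0871) or CuiYu replicate 3 (0.0896). Akibae over SuCui NO.1 passed without CuiYu replicate 3 (0.0366, against 0.0527 with all libraries) and with DESeq2 (0.00856).

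The third gene of the array, gene2399 (18875040 to 18877596), changed inside varieties. It stood at 40.1, 31.9 and 15.5 CPM in Akibae, 1.04, 30.9 and 2.45 CPM in Nijisseiki, 11.3, 39.99 and 2.65 CPM in SuCui NO.1, against 3.34, 0.677 and 3.32 CPM in CuiYu. Replicate 2 was the high library of both Nijisseiki and SuCui NO.1. It did not pass the test among varieties (edgeR adjusted p = 0.186). Without Nijisseiki replicate 2 that test passed (0.029), as did Akibae over CuiYu (0.031, against 0.0884 with all libraries).

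Several members are named after Arabidopsis enzymes with a known part in lignin. One is Peroxidase 47 (gene26165), tied there to the lignin of vessels, which passed the test among varieties and is described with the scarcer members. Of 10 members named Peroxidase 17, 25, 52, 64, 66 or 72, which in Arabidopsis take part in lignin deposition or in the Casparian strip of the root, 7 had reads, 2 were tested and neither passed. Gene36178, a Peroxidase 17 on an unplaced scaffold, was the steadier of them. It stood at 17.5, 16.3 and 17.6 CPM in Akibae, 6.44, 11.6 and 20.2 CPM in Nijisseiki, 9.04, 16.4 and 8.97 CPM in SuCui NO.1, against 25.8, 22.6 and 18.8 CPM in CuiYu. Its libraries overlapped between Nijisseiki and each of the others and between Akibae and SuCui NO.1. Every CuiYu library lay above every Akibae and every SuCui NO.1 library. The test among the 4 varieties gave an adjusted p = 0.174 (edgeR), or 0.045 without Nijisseiki replicate 3. SuCui NO.1 over CuiYu (0.0987) passed without Nijisseiki replicate 1 (0.0374) or SuCui NO.1 replicate 2 (0.0465), and Nijisseiki over CuiYu (0.168) without Nijisseiki replicate 3 (0.0399). The other, gene18273 (Peroxidase 25), stood at 0.289 to 4.38 CPM over the 12 libraries (adjusted p = 0.22). The copies named Peroxidase 64, which acts at the Casparian strip in Arabidopsis, and Peroxidase 72 (gene13841 and gene37523) each had a mean of 0.19 FPKM and were not tested with edgeR. Gene37523, with 6 reads in Akibae, 8 in Nijisseiki and 0 in SuCui NO.1, against 24 in CuiYu, was called among the varieties by DESeq2.

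Of 3 members in the stress group, all named Peroxidase 3, which in Arabidopsis takes part in cold, salt and potassium responses, 1 was tested. Gene34281 (chromosome 17, 15861069 to 15862783) stood at 3.16, 2.15 and 36.3 CPM in Akibae, 5.65, 15.9 and 11.8 CPM in Nijisseiki, 29.96, 48.8 and 7.39 CPM in SuCui NO.1, against 67.9, 30.1 and 24.1 CPM in CuiYu. Akibae replicate 3 lay apart from the other Akibae libraries. It also had the highest sum of the 4 phloem markers, 41.4 CPM, against 4.85 and 6.78 CPM in the other Akibae libraries. SuCui NO.1 replicate 3, with the highest phloem sum of that variety at 10.3 CPM, had its lowest gene34281 level, and CuiYu, with the highest mean level, had phloem sums of 0.278 to 0.516 CPM. The part of phloem in the level was not tested. The test among varieties gave an adjusted p = 0.352 (edgeR), and 0.0238 without Akibae replicate 3, where Akibae over CuiYu also passed, at a log2 fold change of -3.93 (0.0161), and Akibae over SuCui NO.1 at -3.44 (0.0258). Both members of the oxidative burst group, named Peroxidase 21, had no read. The 4 members named Peroxidase 9 or 40, which cross-link wall proteins in anthers of Arabidopsis, had few or no reads and were not tested.

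Other abundant members followed. Gene34751, a Peroxidase 73 on chromosome 2 from 11070540 to 11072764 and the second by mean FPKM, stood at 139, 134 and 54.9 CPM in Akibae, 47.6, 52.4 and 55.04 CPM in Nijisseiki, 104, 57.98 and 329 CPM in SuCui NO.1, against 24.6, 45.99 and 49.8 CPM in CuiYu. All SuCui NO.1 libraries lay above all CuiYu libraries, and SuCui NO.1 replicate 3 was the highest of the 12. It was higher by 2.03 ± 0.58 on the log2 scale in SuCui NO.1 over CuiYu (SE, edgeR adjusted p = 0.0355). The value was 1.02 (0.135) without SuCui NO.1 replicate 3, and the call also ended without CuiYu replicate 1, 2 or 3 (0.122, 0.0956 and 0.0743) and with only the libraries of the pair fitted (0.0765). The test among varieties (0.0516) passed without Akibae replicate 3 (0.0408) or SuCui NO.1 replicate 2 (0.0164). Nijisseiki over SuCui NO.1 (0.0858) passed without SuCui NO.1 replicate 2 (0.0282) and with DESeq2 (0.026). Akibae over CuiYu (0.118) passed without SuCui NO.1 replicate 3 (0.0315) and with only its own libraries fitted (0.0389). 

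Gene28980, a Peroxidase 63 on chromosome 9 from 18836684 to 18837902, stood at 70.3, 75.5 and 37.1 CPM in Akibae, 18.8, 70.2 and 55.8 CPM in Nijisseiki, 5.69, 42.4 and 51.2 CPM in SuCui NO.1, against 52.1, 121 and 96.3 CPM in CuiYu. CuiYu lay above SuCui NO.1 in every library and overlapped the other varieties (edgeR adjusted p among varieties = 0.365).

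The Peroxidase 12 genes, gene29546 (chromosome 10, 1178290 to 1181916) and gene41594 (an unplaced scaffold), were the third and the sixth by mean FPKM, at 62.8 and 34.4 FPKM. Neither differed among varieties in the edgeR test (adjusted p = 0.429 and 0.961). Gene29546 stood at 103, 71.5 and 102 CPM in Akibae, 37.3, 138 and 78.2 CPM in Nijisseiki, 26.9, 45.5 and 87.5 CPM in SuCui NO.1, against 94.9, 88.7 and 103 CPM in CuiYu. Gene41594 stood at 17.7 to 65.4 CPM over the 12 libraries, where all varieties overlapped. In gene29546 every SuCui NO.1 library lay below every CuiYu library, and the other pairs of varieties overlapped. The balance of the pair was less variable than either level. Gene41594 made up 42.9%, 52.6% and 43.3% of their summed FPKM in the SuCui NO.1 libraries, against 30.4% to 35.1% in the 9 libraries of Akibae, Nijisseiki and CuiYu. This share was chosen with its values in view, so it carries no test. Whether reads of 1 Peroxidase 12 gene were counted for the other was not tested.

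**Figure D3:**
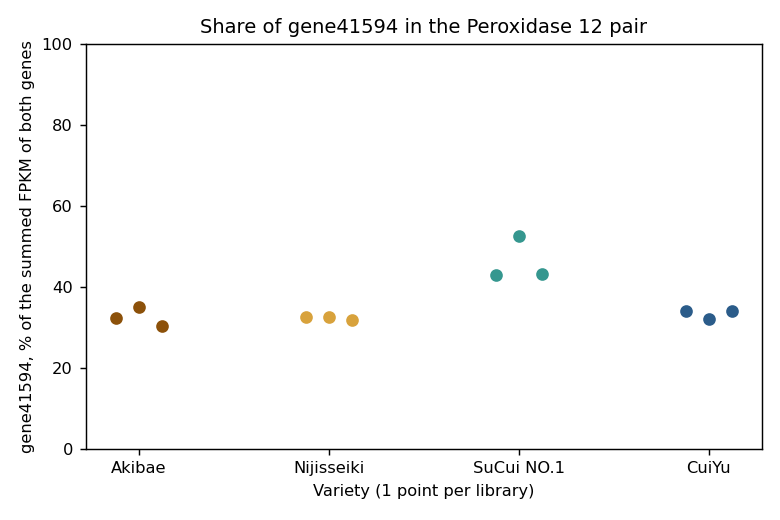
Share of gene41594 in the summed FPKM of the Peroxidase 12 genes, in percent, with 1 point per library and varieties along the axis. The 3 SuCui NO.1 points lie between 42.9% and 52.6%, above the 9 points of the other varieties, which lie between 30.4% and 35.1%.

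Scarcer members supplied the remaining calls. Gene38339, a Peroxidase 45 on chromosome 13 from 17642406 to 17644172, stood at 5.01, 2.55 and 9.75 CPM in Akibae, 5.22, 0.867 and 0.910 CPM in Nijisseiki, 0.251, 0 and 0.215 CPM in SuCui NO.1, against 0.487, 1.43 and 0.221 CPM in CuiYu. Every Akibae library exceeded every SuCui NO.1 and CuiYu library. It was higher by 5.15 ± 1.14 on the log2 scale in Akibae over SuCui NO.1 (SE, edgeR adjusted p = 0.0117), a call kept in all 12 fits that left out 1 library. The test among varieties (0.0187) ended without Akibae replicate 3 (0.052). Nijisseiki over SuCui NO.1 (log2 fold change 3.83 ± 1.12, adjusted p = 0.0473) lost its call without any 1 library other than CuiYu replicate 2, at 0.0509 to 0.122, and was 2.46 without Nijisseiki replicate 1. It also ended with only its own libraries fitted (0.134) without the filter on low counts (0.0503), and with the replicate number as a block (0.0814). Akibae over CuiYu (0.0613) passed without Nijisseiki replicate 1 (0.0268), with only its own libraries fitted (0.0249) and with DESeq2 (0.0112).

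Gene26165, a Peroxidase 47 on chromosome 11 from 24624923 to 24629050, stood at 3.78, 2.39 and 1.73 CPM in Akibae, 1.91, 5.13 and 2.45 CPM in Nijisseiki, 1.42, 2.82 and 0.502 CPM in SuCui NO.1, against 0.696, 0.151 and 0.295 CPM in CuiYu. Akibae and Nijisseiki lay above CuiYu in every library. The log2 fold change was 2.75 ± 0.75 in Akibae over CuiYu (SE, edgeR adjusted p = 0.0304) and 3.02 ± 0.75 in Nijisseiki over CuiYu (0.0214). The first ended without Akibae replicate 1 (0.103) or 2 (0.0673) or CuiYu replicate 2 (0.115) or 3 (0.102), and the second without Nijisseiki replicate 2 (0.0668) or CuiYu replicate 2 (0.0867) or 3 (0.0773). The test among varieties (0.0452) ended, at 0.0529 to 0.141, without any 1 library of Akibae or CuiYu, without Nijisseiki replicate 2 or 3, or without SuCui NO.1 replicate 1, and at 0.0507 without the filter on low counts. SuCui NO.1 over CuiYu (0.0841) passed without SuCui NO.1 replicate 3 (0.0435) and with DESeq2 (0.0428).

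The tested members not yet named did not pass the test among varieties. Gene708, a Peroxidase 4, stood at 2.09 to 27.1 CPM over the 12 libraries (edgeR adjusted p = 0.149). Without SuCui NO.1 replicate 1 gene708 passed (0.0475), as did its fall in Nijisseiki over SuCui NO.1 (0.0423). Another gene of that name, gene18840, stood at 0.376 to 12.8 CPM (0.493). Gene20878, the second Cationic peroxidase 1 by level, stood at 2.85, 5.19 and 8.03 CPM in Akibae, 2.0004, 5.06 and 4.90 CPM in Nijisseiki, 1.51, 2.08 and 0.215 CPM in SuCui NO.1, against 3.97, 3.09 and 7.22 CPM in CuiYu (0.145). Every SuCui NO.1 library lay below every Akibae and every CuiYu library, and the other pairs overlapped. Its log2 fold change was 2.08 in Akibae over SuCui NO.1 (edgeR adjusted p = 0.0704, DESeq2 0.0184) and -1.91 in SuCui NO.1 over CuiYu (0.0854, DESeq2 0.0316). Gene1926 (Peroxidase 53) stood at 0.348 to 14.7 CPM (0.38), and gene11566 (Peroxidase 65) at 0 to 2.65 CPM (0.883).

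Spread inside varieties was wide in this family. Among the 21 tested members that averaged 1 CPM or more, the log2 range from lowest to highest library of a variety, on log2(CPM + 0.1), had a median of 1.37 in Akibae, 1.97 in Nijisseiki and 2.5 in SuCui NO.1, against 1.21 in CuiYu. Over all 23935 genes at that level it was 0.55, 0.70, 0.82 and 0.44 in the same varieties. Markers of cork, the suberin-filled tissue of russet, also varied inside varieties. All 12 cork markers had reads, and they summed to 183 to 231 CPM in Akibae, 90.7 to 456 in Nijisseiki and 82.2 to 289.8 in SuCui NO.1, against 203 to 279 in CuiYu. Much of that sum was 1 gene, the CYP86B1 gene6685, which had 225, 202 and 188 CPM in CuiYu and was lower in Akibae over CuiYu by a log2 fold change of -1.60 (edgeR adjusted p = 0.0194). The other 9 tested cork markers had log2 fold changes of 1.40 to 5.16 in that pair, with 1 past the threshold. The median of the 10 tested cork markers was 13.1, 11.1 and 10.95 CPM in Akibae, 1.83, 29.9 and 10.4 CPM in Nijisseiki, 1.30, 15.8 and 0.861 CPM in SuCui NO.1, against 5.22, 0.677 and 1.58 CPM in CuiYu. It was highest in replicate 2 of Nijisseiki, replicate 2 of SuCui NO.1 and replicate 1 of CuiYu.

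Of the 24 tested members, 6 (25%) were highest within their variety in all 3 of those libraries, against 5.01% of all genes tested. Akibae was left out of this count. The set was chosen after its values were seen, so the share carries no test. Taken singly, 13 members (54.2%) were highest in the Nijisseiki library, against 31.4% of genes, 11 (45.8%) in the SuCui NO.1 library, against 29.4%, and 9 (37.5%) in the CuiYu library, against 36.4%, a share near the background. In Akibae, 14 members (58.3%) were highest in replicate 1, where the cork median was highest, against 33% of genes. The same Nijisseiki and SuCui NO.1 libraries were also highest for the chlorophyll a-b binding genes, which summed to 714 CPM in Nijisseiki replicate 2, against 207 and 199 CPM in replicates 1 and 3, and to 1243 CPM in SuCui NO.1 replicate 2, against 688 and 512 CPM in replicates 1 and 3. In CuiYu and Akibae that sum was highest in replicate 3. The 6 members were gene8281 and gene853, both named Peroxidase 11, gene20190 (Peroxidase 20), gene2399 (Peroxidase 15), gene26165 (Peroxidase 47) and gene34281 (Peroxidase 3). Gene8281, the highest of the Peroxidase 11 genes (chromosome 13, 3550796 to 3552535), stood at 38.2, 26.6 and 16.5 CPM in Akibae, 5.74, 63.9 and 16.6 CPM in Nijisseiki, 2.85, 28.4 and 1.65 CPM in SuCui NO.1, against 10.6, 1.35 and 3.46 CPM in CuiYu. Gene20190 (chromosome 6, 2143813 to 2146803) stood at 25.6, 17.4 and 9.83 CPM in Akibae, 1.30, 36.8 and 7.003 CPM in Nijisseiki, 1.34, 8.70 and 0.287 CPM in SuCui NO.1, against 3.76, 0.301 and 1.18 CPM in CuiYu. In both genes, Akibae replicate 1 was the highest Akibae library, as it was for the cork median, while gene34281 was highest in Akibae replicate 3. In gene8281 and gene20190 the spread inside Nijisseiki or SuCui NO.1 exceeded any difference between variety means, and the tests among varieties did not pass (edgeR adjusted p = 0.278 and 0.159). Both overlap another annotated gene on the same strand, so their reads cannot be assigned to them with certainty. Gene853, the other Peroxidase 11 (chromosome 3, 24397545 to 24399214), has no such overlap, stood at 0.143 to 10.7 CPM and was highest in the same library of each variety as gene8281. The part of cork or green tissue in these levels was not tested.

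**Figure D4:**
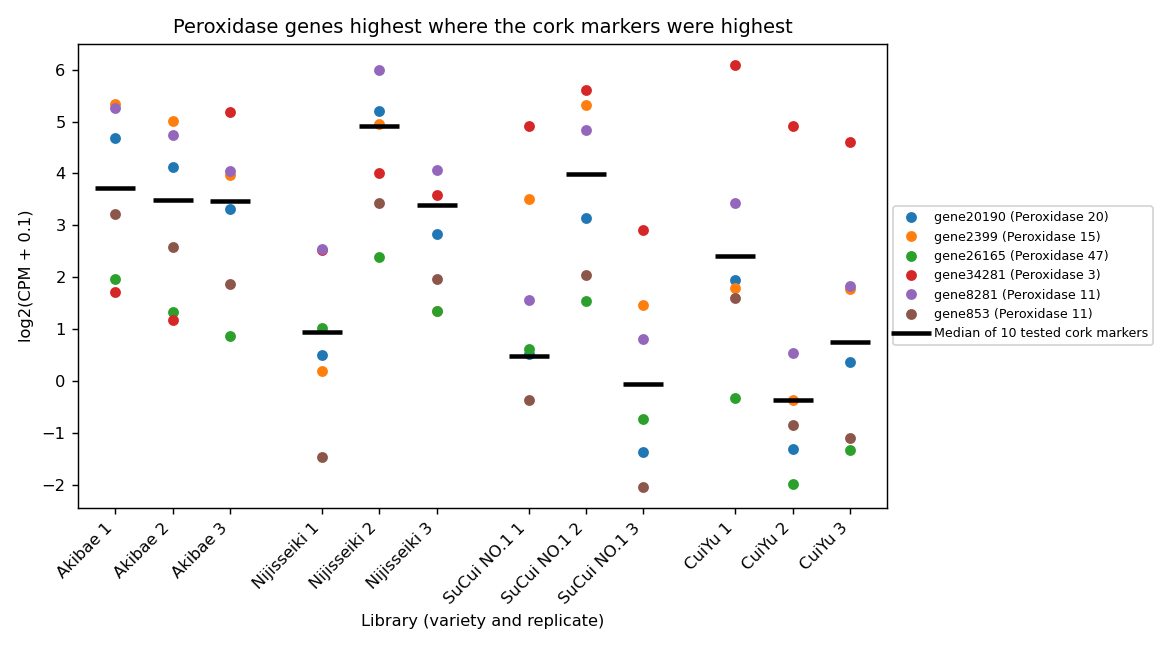
Log2(CPM + 0.1) of the 6 members that were highest within their variety in replicate 2 of Nijisseiki, replicate 2 of SuCui NO.1 and replicate 1 of CuiYu (coloured points) and the median of the 10 tested cork markers (black bars), by library. The cork bars rise to 29.9, 15.8 and 5.22 CPM in those 3 libraries, and Akibae libraries stay between 10.95 and 13.1 CPM.

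Genes taken by name for lignin or hydrogen peroxide chemistry were counted in the same tests, with the background of each test as given above. Of 10 tested laccases, copper enzymes that oxidise the same lignin monomers with oxygen, 2 differed among the varieties. Putative laccase-9 (gene7199) was higher in Akibae over CuiYu by 4.19 on the log2 scale (edgeR adjusted p = 0.0034) and over SuCui NO.1 by 3.44 (0.00732), while Laccase-6 (gene27842) was lower in Akibae over CuiYu by a log2 fold change of -6.91 (0.0431). The laccases summed to 107 to 157 CPM in Akibae, 31.0 to 159.97 in Nijisseiki and 31.05 to 114 in SuCui NO.1, against 17.3 to 48.6 in CuiYu. The highest value of the last 3 varieties fell in the same libraries as for the cork markers. In Akibae the laccase sum was highest in replicate 3, at 157 CPM, against 112 CPM in replicate 1, where the cork markers were highest.

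A list taken by name for the making of the monomers held cinnamoyl-CoA reductases and cinnamyl alcohol dehydrogenases. Whether each of them makes a monomer was not tested. Of its 27 tested genes, 10 (37%) differed among the varieties. They split in direction: in Akibae over SuCui NO.1, 4 were higher and 3 lower, in Akibae over CuiYu 2 and 2, in Nijisseiki over SuCui NO.1 5 and 1, in Nijisseiki over CuiYu 4 and 1, and in SuCui NO.1 over CuiYu 3 and 2. A list taken by name for hydrogen peroxide supply held respiratory burst oxidases, superoxide dismutases, polyamine oxidases and germin-like proteins. Whether each of them makes hydrogen peroxide was not tested. Of its 29 tested genes, 7 (24.1%) differed. In Akibae over SuCui NO.1, 4 were higher and 2 lower, in Akibae over CuiYu 3 and 1, in Nijisseiki over SuCui NO.1 1 and 1, and in SuCui NO.1 over CuiYu 3 and 2. A single gene was called in Akibae over Nijisseiki and 2 in Nijisseiki over CuiYu, all higher. Among them, picked after their values were seen, respiratory burst oxidase homolog C (gene11429), which makes superoxide at the cell membrane, was higher in Nijisseiki over SuCui NO.1 by 4.86 on the log2 scale (edgeR adjusted p = 0.00192) and in Akibae over SuCui NO.1 by 4.27 (0.003). Of 31 tested genes named catalase, L-ascorbate peroxidase, glutathione peroxidase or peroxiredoxin, taken by name for hydrogen peroxide removal, 11 (35.5%) differed. In Nijisseiki over CuiYu 9 were called and in Nijisseiki over SuCui NO.1 4, each of them higher in Nijisseiki. In Akibae over SuCui NO.1, 3 were higher and 1 lower, in Akibae over CuiYu 6 and 2, and in SuCui NO.1 over CuiYu 4 and 3. No gene of the table carried the name suberization-associated anionic peroxidase.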

How the data were processed

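Skin RNA of 12 libraries was measured by RNA sequencing. Per the labels' protocols, the 3 libraries of a variety are biological replicates, CTAB was used for the RNA and an NEB Next Ultra kit for the libraries. The authors deposited raw counts per gene and FPKM in 1 table. The deposited counts are whole numbers with no scaling, and the deposited FPKM divide them by gene length and 1 constant per library, 0.9198 to 1.1055 times its count sum. The sources used here name no aligner, counting tool, strand setting or genome build. Depth was 11981445 to 15136559 counts, so 3 counts over a variety were 0.0728 to 0.0772 CPM. No 2 libraries held identical counts.

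Counts were tested with edgeR 4.0.16 (R 4.3.3): filterByExpr by variety (26307 genes kept), TMM scaling, glmQLFit with 1 mean per variety over all 12 libraries, glmQLFTest for any difference among varieties and for 6 pairs, each with Benjamini-Hochberg adjustment across the tested genes and a cut at 0.05. The fit was tested on simulated data. Libraries of the same replicate number deviated together at a correlation over 0.1 in all 3 pairs of Nijisseiki and SuCui NO.1 (0.369, 0.362 and 0.196) and in no other pair of varieties throughout. The labels give no source for such a pairing. SE was taken as log2 fold change over the root of F. Alternatives were DESeq2 1.42.0, RLE scaling, no filter, a mean of at least 1 CPM, a replicate block, only the libraries of a pair, and leaving out each library. Named genes were gene9066, the 6 highest by FPKM, members called against each other variety, the 2 largest non-overlapping folds per pair and direction with a mean of at least 1 CPM, and the member with the lowest p in each role group, 13 in all. Members named outside this rule, with the Peroxidase 12 share and the cork-related set, were chosen after their values were seen. The members and lists were chosen with earlier results of these data known.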

Additional observations from a re-analysis of the deposited data

How the results depend on the processing

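RLE scaling moved no count of called members beyond 1.5 times and ended no call of a named member. DESeq2 made more calls: 8 members among the 4 varieties (5 with edgeR, DESeq2 background 37.2%), 4 higher and 1 lower in Akibae over SuCui NO.1 (1 and 0 with edgeR, DESeq2 background 9.34% and 10.9%), 7 higher in Akibae over CuiYu (3, background 9.56%), 4 higher and 2 lower in Nijisseiki over SuCui NO.1 (2 and 0, background 8.97% and 8.29%), 5 higher in Nijisseiki over CuiYu (3, background 11%), and 6 higher and 4 lower in SuCui NO.1 over CuiYu (2 and 2, background 11.3% and 10.7%). Lower in 1 variety than in each other were 4 members (1 with edgeR), 3 for CuiYu (background 3.17%) and 1 for SuCui NO.1 (3.07%). Both DESeq2 and the fit of the pair alone called Akibae over CuiYu for gene2399 (0.00842 and 0.00529), gene20190 (0.0273 and 0.0177), gene5563 (0.00693 and 0.00531) and gene38339 (0.0112 and 0.0249). DESeq2 called more of all genes too. Without the filter on low counts, 1 member was higher in Nijisseiki over SuCui NO.1 (background 4.6%). With a minimum mean of 1 CPM gene2397 was not tested. In that fit 0 members were lower in Akibae over CuiYu (background 7.77%) or in Nijisseiki over CuiYu (7.35%). Fitted with only the 6 libraries of a pair, 2 members were higher in Akibae over SuCui NO.1 (background 5.33% in that fit). In Akibae over CuiYu 9 were higher and 2 lower (12.7% and 13.4%), and in Nijisseiki over SuCui NO.1 0 were higher (2.61%). In SuCui NO.1 over CuiYu 1 was higher and 1 lower (8.32% and 8.34%). The causes were not tested.

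Leaving out 1 library at a time gave 4 to 7 members among the varieties, while the share of all genes called moved between 18.2% (without CuiYu replicate 2) and 33.8% (without Nijisseiki replicate 1), and 0 throughout between Akibae and Nijisseiki. It gave 1 to 2 higher and 0 to 1 lower in Akibae over SuCui NO.1, 1 to 5 and 1 to 2 in Akibae over CuiYu, 0 to 2 and 0 to 1 in Nijisseiki over SuCui NO.1, 1 to 3 and 0 to 1 in Nijisseiki over CuiYu, 1 to 2 and 0 to 3 in SuCui NO.1 over CuiYu, and 1 to 2 lower in 1 variety than in each other. Counts higher in Akibae over CuiYu fell to 1 without Akibae replicate 1 or 2 or CuiYu replicate 2 or 3. The share of all genes fell too, to 4.13%, 4.1%, 3.55% and 4.4% in turn, against 6.99% with all libraries. These counts were 5 without Nijisseiki replicate 1 (background 8.69%) or SuCui NO.1 replicate 3 (7.97%). Counts higher in Nijisseiki over CuiYu fell to 1 without CuiYu replicate 2 or 3 (background 3.72% and 4.79%, against 8.03% with all libraries). Members lower in SuCui NO.1 over CuiYu numbered 0 without SuCui NO.1 replicate 3 (background 6.17%) or any 1 CuiYu library. The background was 4.89%, 4.55% and 5.77% without CuiYu replicate 1, 2 and 3, against 8.58% with all libraries. Gene21781, gene2401 and gene2397 were called among the varieties in all 12 of these fits. No called fold change of a named member reversed under any alternative.

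Over all varieties, libraries of the same replicate number deviated together at a correlation over 0.1 in 5 of 18 pairs. Outside Nijisseiki and SuCui NO.1, these were SuCui NO.1 and CuiYu at replicates 1 (0.132) and 3 (0.199), with -0.0281 at replicate 2. Of 12 libraries, 6 correlated best with a library of their own number. With the replicate number as a block, 6 members differed among varieties (25.8% of all genes), with gene9066 added (adjusted p = 0.0259). In the pairs the block left 1 member higher in Nijisseiki over SuCui NO.1 (background 6.04%) and 0 lower in Nijisseiki over CuiYu (7.12%). In SuCui NO.1 over CuiYu it left 1 higher (8.1%) and 1 lower (8.49%). The block ended the calls of gene2401 in Akibae over CuiYu (0.0742), gene38339 in Nijisseiki over SuCui NO.1 (0.0814), gene2397 in Nijisseiki over CuiYu (0.0681), and gene34751 and gene155 in SuCui NO.1 over CuiYu (0.063 and 0.0599). At a common biological coefficient of variation of 0.41 and 3 libraries per variety, small differences were not detectable, and replicates show the spread between these samples only.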

Other observations

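Both genes named Peroxidase 29, gene20992 and gene29398 on chromosomes 13 and 17, had reads in CuiYu and in no other variety. Gene20992 had 7, 15 and 1 reads in the CuiYu libraries and gene29398 had 4, 1 and 1. Against a floor of 3 reads over the 3 libraries of a variety, CuiYu held at least 7.22-fold more reads of gene20992 than Akibae, 7.37-fold more than Nijisseiki and 7.32-fold more than SuCui NO.1. Both were too scarce for the edgeR test, and they were picked out after their values were seen. Conversely, gene5563 (Peroxidase 57) had 62 reads in Akibae, 23 in Nijisseiki and 37 in SuCui NO.1 against 0 reads in CuiYu, at least 21.9-fold more in Akibae than in CuiYu. It did not pass the test among the varieties (edgeR adjusted p = 0.152) or Akibae over CuiYu (0.0708), which passed without Nijisseiki replicate 1 (0.0479), SuCui NO.1 replicate 1 (0.0459) or SuCui NO.1 replicate 3 (0.0382).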
